A study of Mus musculus with 12 samples.

Results

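The 7 chemokine genes Ccl17, Ccl22, Ccl20, Ccl1, Xcl1, Cxcl16 and Cx3cl1 were followed in mouse lymph node dendritic cells after a TLR2 ligand. Members were taken as probe sets of the deposited array table with a single gene symbol from this list, which gave 11 of 45101 probe sets and 7 of 18194 named genes. Each gene was read from its brightest probe set. All 7 genes lay above the expression filter, as did 12792 genes in all, and 9 of the 11 probe sets passed it on their own.

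The study measured messenger RNA on 12 Affymetrix arrays of C57BL/6 dendritic cells that were isolated from lymph nodes and kept in culture. Cells labelled p38a-knockout (KO) were set against cells labelled wild type (WT). p38α, the product of Mapk14, is a stress-activated protein kinase downstream of Toll-like receptors. The 6 groups were KO cells at 0, 2 and 4 h and WT cells at 0, 2 and 4 h, with 2 arrays, A and B, in each. All cultures sampled at 2 and 4 h had received Pam3CSK4, a lipopeptide ligand of TLR2, at a labelled dose of 1 mg/ml. The 0 h arrays carry the same labelled dose and are read here, by their time of 0 h, as unstimulated. The sources used here do not give how or in which cells the gene was deleted, or the age of the mice. As all later arrays were treated, the ligand and the hours in culture cannot be told apart as sources of a change.

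Chemokines are small secreted proteins that guide leukocytes through G protein-coupled receptors. Those of dendritic cells recruit the T cells that the dendritic cell is to prime. Ccl17 and Ccl22 bind CCR4, found on regulatory, TH2 and skin-homing T cells, Ccl20 binds CCR6 of TH17 cells and B cells, and Ccl1 binds CCR8 of TH2 and regulatory cells. Xcl1 is made mainly by NK cells and activated CD8+ T cells and binds XCR1, which marks the cross-presenting subset of conventional dendritic cells. Cxcl16 and Cx3cl1 are made as membrane-bound ligands for CXCR6 and CX3CR1 and are released by the proteases ADAM10 and ADAM17.

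The deposited arrays had no common scale (2% trimmed means of 66.6 to 119), so all signals given are after quantile normalization. The brightest Mapk14 probe set was not lower in KO arrays, with signals of 315 and 315 unstimulated, 249.9 and 252 after 2 h, and 247 and 227 after 4 h, against 325 and 243 unstimulated, 201 and 158 after 2 h, and 173 and 199 after 4 h in WT arrays. Its KO minus WT difference over the 3 times together was 0.31 ± 0.08 (SE, log2; limma adjusted p = 0.014), which goes against the label. That difference was not called on the deposited scale, with the mean of all probe sets, without the variance trend or without WT 2 h B. The other Mapk14 probe sets above the filter gave 0.29 and 0.03 over the 3 times together, neither called among all probe sets. The sources used here do not place the Mapk14 probe sets relative to the deleted part, so these probe sets do not check the labels. KO and WT below mean the arrays so labelled. All 6 dendritic cell markers (Itgax, Flt3, Zbtb46, H2-Aa, Cd74, Cd83) lay above the filter. So did 7 of 8 measured T cell markers, 7 of 7 NK cell, 5 of 6 B cell, 6 of 6 macrophage and monocyte, 9 of 10 endothelial and stromal, 4 of 4 neutrophil and 2 of 6 mast cell and basophil markers.

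In both genotypes 5 of the 7 chemokine genes stood higher at 4 h than at 0 h, Cxcl16 stood lower, and Cx3cl1 did not pass the test. From highest to lowest, the changes at 4 h were those of Ccl17, Ccl20, Ccl1, Ccl22 and Xcl1 in KO and in WT arrays, with log2 changes from 3.10 to 0.83 and from 3.54 to 0.78. Differences between neighbours were not tested, and while Ccl17 had the largest and Xcl1 the smallest of these 5 rises under every setting run, the order of the others turned. With a pseudocount of 64 Ccl22 (1.02 in KO and 1.06 in WT arrays) stood above Ccl20 and Ccl1, with trimmed-mean scaling Ccl22 stood above Ccl1 in WT arrays, and without KO 0 h A or KO 4 h A Ccl1 stood above Ccl20 in KO arrays. Calls are limma results at adjusted p under 0.05 (Benjamini-Hochberg over 12792 genes). Changes are of log2(signal + 16) and folds are of signal + 16, a scale that understates the change of dim genes. At 4 h, 5 of 7 were higher and 1 lower in KO arrays, where 7.24% of all genes were called higher and 10.9% lower, and the same numbers in WT arrays stood against 8.31% and 9.9%. At 2 h, 4 were higher and 1 lower in KO arrays (all genes 7.85% and 11.7%), and 5 were higher and 1 lower in WT arrays (8.43% and 11.5%). The median log2 change of the 7 genes at 4 h was 1.03 in KO and 1.07 in WT arrays, beside -0.05 and -0.02 for all genes tested. In such bulk cultures fewer cells of a type and less RNA per cell cannot be told apart.

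**Figure D1:**
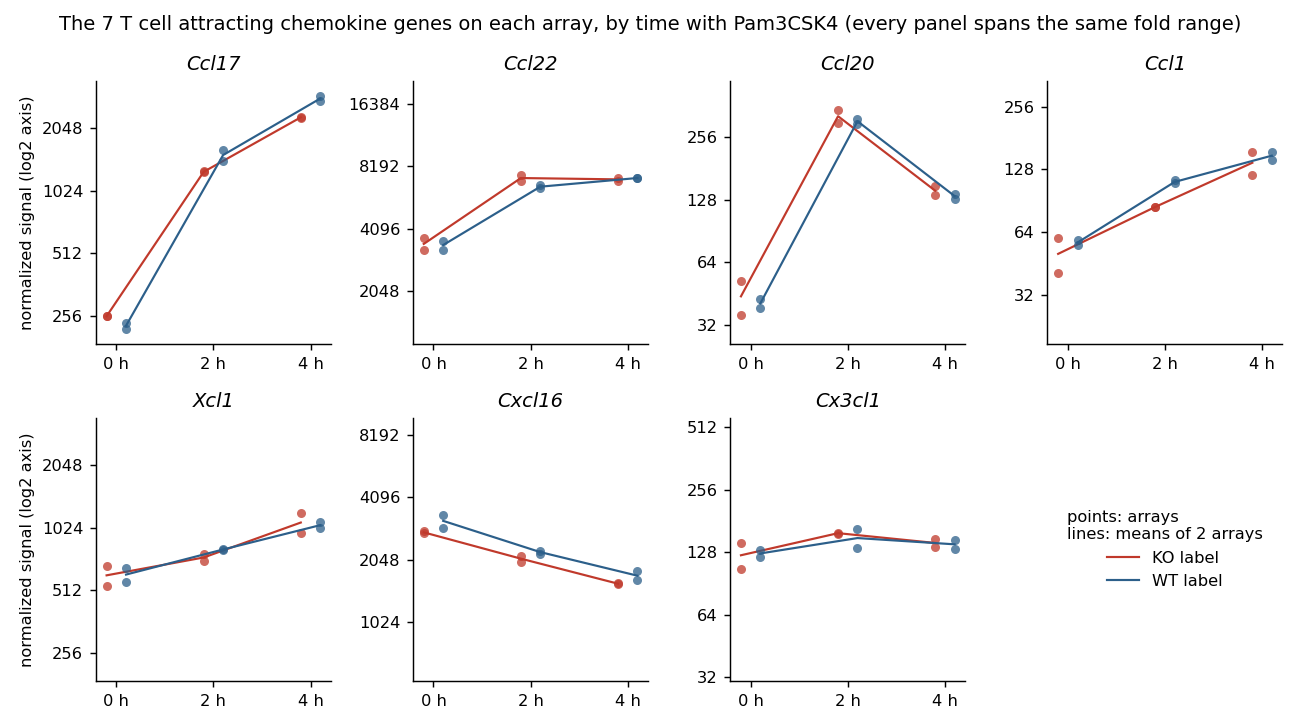
Quantile-normalized signal of the brightest probe set of each gene (log2 axis, same fold range in every panel) at 0, 2 and 4 h, with points for arrays and lines through the means of 2 arrays, KO in red and WT in blue. Ccl17 climbs at each step, Ccl20 peaks at 2 h, Cxcl16 declines, and Cx3cl1 stays between 106 and 165.

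Ccl17, also called TARC, had signals of 254 and 254 unstimulated, 1268 and 1252 after 2 h, and 2284 and 2325 after 4 h in KO arrays. In WT arrays it had 221 and 237 unstimulated, 1613 and 1422 after 2 h, and 2912 and 2764 after 4 h. Within each genotype the 3 times did not overlap, and the level was higher at every later time. In KO arrays Ccl17 rose by 2.24 ± 0.07 (SE, log2) after 2 h and by 3.10 ± 0.07 after 4 h, or 8.59-fold (adjusted p = 2.1e-13). In WT arrays it rose by 2.65 ± 0.07 after 2 h and by 3.54 ± 0.07 after 4 h, or 11.7-fold (adjusted p = 4.2e-14). Between 2 and 4 h it gained a further 0.86 in KO and 0.90 in WT arrays (adjusted p = 2.5e-06 and 1.6e-06).

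Ccl22, the other CCR4 ligand, had 3678 and 3234 unstimulated, 7390.3 and 6954 after 2 h, and 7163 and 6973 after 4 h in KO arrays. In WT arrays its signals were 3581 and 3247 unstimulated, 6417 and 6616 after 2 h, and 7163 and 7187 after 4 h. All arrays at 2 and 4 h stood above all arrays at 0 h, while the later times lay close together. Ccl22 rose by 1.05 ± 0.07 in KO and 0.93 ± 0.07 in WT arrays at 2 h (adjusted p = 1.6e-08 and 5.3e-08). From 2 to 4 h the change was -0.02 (95% interval -0.16 to 0.12) in KO and 0.14 (-0.01 to 0.28) in WT arrays, neither past the threshold. At 2 h Ccl22 thus had 102% and 87.03% of its 4 h log2 change in KO and WT arrays, and Ccl17 had 72.2% and 74.6%.

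The start-site regions of these CCR4 ligands are shown because both genes rose while Cx3cl1, the gene between them, was not called. RefSeq sequences were at hand for 6 of the 7 genes, each covering 250 bases before to 50 after 1 annotated start (GRCm38.p6). Capitals mark matches on either strand to a loose NF-kB motif (GGG and CC with any 5 bases between them) or to the STAT palindromes, TTC and GAA with any 3 or any 4 bases between them. Ccl17 lies at chr8:94810203-94810502 and Ccl22 at chr8:94745434-94745733, both on the plus strand.
Ccl17: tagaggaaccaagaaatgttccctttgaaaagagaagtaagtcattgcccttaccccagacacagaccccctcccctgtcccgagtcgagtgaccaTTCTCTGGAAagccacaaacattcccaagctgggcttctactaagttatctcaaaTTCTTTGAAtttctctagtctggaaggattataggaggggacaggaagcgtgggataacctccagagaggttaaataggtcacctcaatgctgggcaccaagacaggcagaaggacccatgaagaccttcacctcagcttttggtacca
Ccl22: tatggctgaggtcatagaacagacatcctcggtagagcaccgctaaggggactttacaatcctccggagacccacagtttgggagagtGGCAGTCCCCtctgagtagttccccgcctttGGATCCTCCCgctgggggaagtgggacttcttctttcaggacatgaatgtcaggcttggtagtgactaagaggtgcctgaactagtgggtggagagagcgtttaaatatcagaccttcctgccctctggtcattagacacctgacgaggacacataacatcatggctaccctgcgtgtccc
The Ccl17 window holds 1 match to each STAT form and none to the loose NF-kB motif, of which the Ccl22 window holds 2 on the minus strand. The loose motif occurs in 50.4% of 27018 RefSeq windows of this length and in 3 of the 6 members'. The STAT form with 3 bases occurs in 8.47% and that with 4 bases in 6.98% of all windows, and each in 1 of the 6. The RefSeq gene of Ccl17 also extends upstream of the window shown, so a further start lies outside it.

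Ccl20, known as MIP-3α, was the gene with a peak. It had 35.5 and 52.3 unstimulated, 299.7 and 347 after 2 h, and 149 and 134 after 4 h in KO arrays. The WT arrays had 42.6 and 38.7 unstimulated, 314 and 297 after 2 h, and 129.9 and 137 after 4 h. Both genotypes stood highest at 2 h, lowest at 0 h and between them at 4 h, with no overlap of times within a genotype. At 2 h Ccl20 rose by 2.51 ± 0.14 in KO and 2.51 ± 0.14 in WT arrays (adjusted p = 2.0e-09 and 1.6e-09), or 5.71-fold and 5.68-fold in signal + 16. Over all settings run this rise was 1.85 to 2.87 in KO and 1.82 to 2.88 in WT arrays. From 2 to 4 h it fell by 1.10 in KO and by 1.11 in WT arrays (adjusted p = 6.5e-05 and 7.1e-05), and at 4 h it was still 1.41 and 1.40 above 0 h. The KO decline was not called on the deposited scale (adjusted p = 0.058). With a pseudocount of 64 in place of 16 the 4 h changes were 0.93 and 0.92.

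The Ccl20 region is the only one of the 6 windows with matches to a stricter NF-kB form and is shown for that, beside Ccl1, an induced gene with matches to the loose motif alone. Ccl20 lies at chr1:83116516-83116815 on the plus strand and Ccl1 at chr11:82179763-82180062 on the minus strand, with capitals as above.
Ccl20: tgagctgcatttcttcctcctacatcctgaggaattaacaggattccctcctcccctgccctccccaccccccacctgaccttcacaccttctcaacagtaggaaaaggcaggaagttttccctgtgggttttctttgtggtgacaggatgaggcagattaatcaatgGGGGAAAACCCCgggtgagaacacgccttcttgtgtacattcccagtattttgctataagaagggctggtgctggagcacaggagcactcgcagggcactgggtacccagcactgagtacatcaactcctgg
Ccl1: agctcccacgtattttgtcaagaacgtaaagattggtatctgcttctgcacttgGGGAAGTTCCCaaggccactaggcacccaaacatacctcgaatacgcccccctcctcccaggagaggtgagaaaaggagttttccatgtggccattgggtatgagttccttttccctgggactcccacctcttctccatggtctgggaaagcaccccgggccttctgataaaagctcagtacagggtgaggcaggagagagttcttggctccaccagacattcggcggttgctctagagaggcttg
The capitals of Ccl20 are 4 overlapping matches to the loose motif on the 2 strands. Of these, 2 also meet a stricter form (GGG, any 2 bases, TT, any 1 base, CC). That form is in 4.71% of all windows and in 1 of the 6 members'. The capitals of Ccl1 are 2 overlapping matches, 1 on each strand. TGANTCA, the AP-1 motif, and TGACGTCA, the CREB site, had no match in the 6 windows and occur in 7.94% and 1.88% of all.

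Ccl1, a ligand better known from activated T cells and mast cells, had 59.98 and 40.5 unstimulated, 84.6 and 84.4 after 2 h, and 121 and 155 after 4 h in KO arrays. Its WT signals were 58.3 and 55.6 unstimulated, 109.6 and 113 after 2 h, and 156 and 143 after 4 h. All 4 h arrays stood above all 2 h arrays and these above all 0 h arrays. Ccl1 rose by 1.22 ± 0.15 in KO and 1.18 ± 0.15 in WT arrays at 4 h (adjusted p = 2.7e-05 and 3.6e-05). At 2 h it had risen by 0.62 ± 0.15 and 0.81 ± 0.15 (adjusted p = 0.0088 and 0.0011). Both 2 h calls were lost on the deposited scale, where the changes were 0.19 and 0.43 and the median of all genes -0.41 and -0.35, and the KO call was also lost without KO 0 h B (0.41, adjusted p = 0.11). With a pseudocount of 64 the 2 h changes were 0.38 in KO and 0.54 in WT arrays.

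Xcl1, or lymphotactin, had 667 and 538 unstimulated, 764 and 706 after 2 h, and 963 and 1202 after 4 h in KO arrays. Its WT signals were 559 and 657 unstimulated, 796 and 809.6 after 2 h, and 1013 and 1089 after 4 h. All 4 h arrays were above all 2 h arrays, and these above all 0 h arrays. Xcl1 rose by 0.83 ± 0.11 in KO and 0.78 ± 0.11 in WT arrays at 4 h, or 1.77-fold and 1.71-fold (adjusted p = 7.8e-05 and 1.3e-04). At 2 h it rose by 0.40 in WT arrays (adjusted p = 0.022) and its KO change was 0.29 (adjusted p = 0.095). Without KO 0 h A the KO change was 0.44 and called (adjusted p = 0.037). On the deposited scale the 4 h changes were 0.66 and 0.66 and not called (adjusted p = 0.078 and 0.083). There the 2 h changes were -0.17 and 0.09, and the WT 2 h call was also lost when WT 0 h A, WT 2 h A or WT 2 h B was left out (highest adjusted p 0.19) or the variance trend was not used.

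Markers of the lymphocytes that make Xcl1 and Ccl1 were measured in the same arrays. At 4 h the shares of all genes called higher and lower were 7.24% and 10.9% in KO and 8.31% and 9.9% in WT arrays. Of 7 tested NK cell markers 2 were higher and 1 lower at 4 h in each genotype. These were the NK receptor gene Ncr1 (0.93 in KO and 0.87 in WT arrays), Gzmb, a granzyme (0.58 and 0.47), and Klrd1, which encodes CD94 (-0.90 and -0.94). The Gzmb calls and the WT Ncr1 call were lost on the deposited scale, both WT calls also without WT 0 h B (highest adjusted p over all settings 0.43 and 0.077), and that of Gzmb without WT 4 h A. The summed signal of the NK markers was 2412 to 2576 unstimulated, 2289 to 2402 after 2 h, and 2705 to 2713 after 4 h on KO arrays, and 2335 to 2559.7, 2271 to 2337 and 2299.6 to 2453 on WT arrays at the same times. Of 7 tested T cell markers none was higher, and 1 was lower in KO (Il7r) and 3 in WT arrays (Il7r, Cd28, Cd3g) at 4 h, with Il7r at -0.82 and -0.78. The calls of Cd28 and Cd3g were lost when WT 4 h A or WT 4 h B was left out, that of Cd28 also without WT 0 h B and that of Cd3g without WT 0 h A (highest adjusted p over all settings 0.196 and 0.25). Their summed signal was 2565 to 2698 unstimulated, 1514 to 1588 after 2 h, and 1768 to 1832 after 4 h on KO arrays, and 2928 to 3184, 1772 to 1809.5 and 1976 to 2100.1 on WT arrays at the same times. At 2 h only 1 of the 7 was called in each genotype, Il7r at -1.19 in KO and -1.28 in WT arrays. The list median at 2 h was -0.26 and -0.15. Among the markers, Cd4 of the T cell list and Mcpt4, Fcer1a, Mcpt8 and Tpsb2 of the mast cell list lay below the filter. The part of these cells in the Xcl1 and Ccl1 results was not tested.

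Cxcl16, a transmembrane chemokine that also binds oxidised lipoprotein, was the only one of the 7 called below its 0 h level. It had 2796 and 2744 unstimulated, 2142 and 1997 after 2 h, and 1564 and 1572 after 4 h in KO arrays. In WT arrays it had 3369 and 2923 unstimulated, 2187 and 2264 after 2 h, and 1798 and 1629 after 4 h. Each later time lay below the one before, with no overlap within a genotype. Cxcl16 fell by 0.42 ± 0.07 after 2 h and by 0.81 ± 0.07 after 4 h in KO arrays (adjusted p = 8.2e-04 and 1.1e-06). In WT arrays it fell by 0.49 after 2 h and by 0.87 after 4 h (adjusted p = 1.7e-04 and 4.8e-07), so that the 4 h level was 1.76-fold and 1.83-fold below that at 0 h. Its other probe set gave -0.82 and -0.96 at 4 h, both called among all probe sets. The further fall between 2 and 4 h, -0.40 in KO and -0.38 in WT arrays, was not called on the deposited scale (-0.11 and -0.22). The WT one was also lost without WT 4 h B (adjusted p = 0.059) and without the variance trend.

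Cx3cl1, or fractalkine, had 141 and 106 unstimulated, 159 and 157 after 2 h, and 148 and 135 after 4 h in KO arrays. The WT arrays gave 122 and 131 unstimulated, 134 and 165 after 2 h, and 146 and 133 after 4 h. In KO arrays 0 h and 4 h overlapped, in WT arrays 2 h and 4 h, and no change from 0 h was called by limma in either genotype. The changes at 2 h were 0.33 (95% interval 0.04 to 0.61, unadjusted p = 0.027) in KO and 0.21 (-0.07 to 0.50) in WT arrays. At 4 h they were 0.19 (-0.10 to 0.47) and 0.13 (-0.16 to 0.41). The KO 2 h change was called without KO 0 h A (0.51, adjusted p = 0.032), and all 4 changes from 0 h were below 0 on the deposited scale. A second probe set above the filter gave -0.57 in KO and 0.22 in WT arrays at 2 h, neither called, and the remaining pair lay below the filter. Cx3cl1 is known from endothelium and epithelium, and the endothelial and stromal marker list had a summed signal of 2419.6 to 2468 unstimulated, 2748 to 2911 after 2 h, and 2085 to 2360.3 after 4 h on KO arrays, and 2028 to 2128, 2397 to 2554 and 2000.3 to 2176 on WT arrays at the same times. The part of such cells in the Cx3cl1 signal was not tested.

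**Figure D2:**
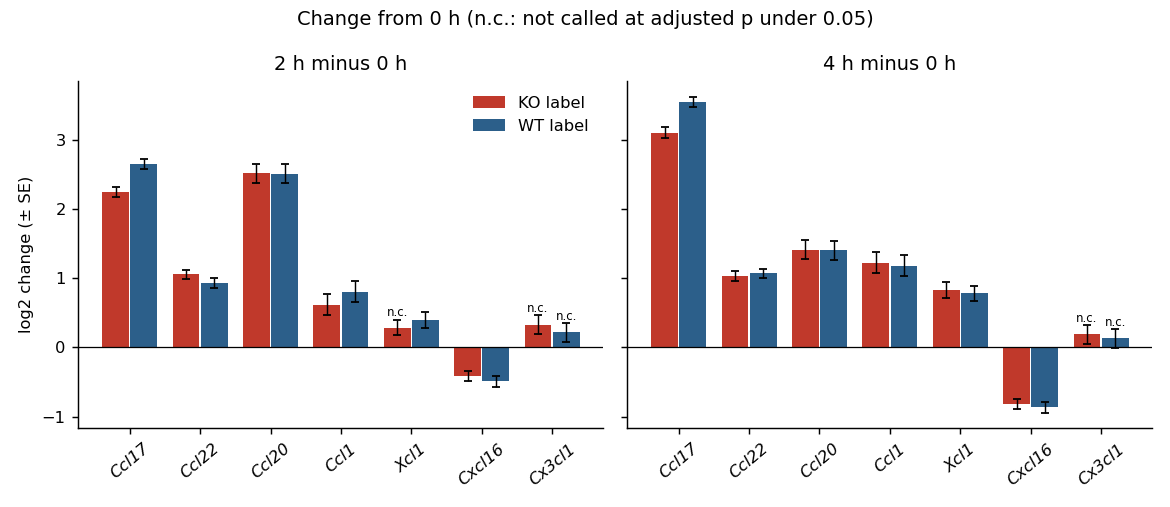
Log2 change from 0 h of each gene at 2 h (left) and 4 h (right), bars for KO (red) and WT (blue) with standard errors, and n.c. for changes that were not called. At 4 h only the Cx3cl1 bars are not called, and at 2 h the KO bar of Xcl1 is not called either.

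The step from 2 to 4 h separated the genes further. In KO arrays 3 of 7 rose (Ccl17, Ccl1, Xcl1) and 2 fell (Ccl20, Cxcl16), where 6.46% of all genes were called higher and 7.25% lower. In WT arrays 2 rose (Ccl17, Xcl1) and 2 fell (Ccl20, Cxcl16), against 5.32% and 5.75%. Ccl1 gained 0.61 ± 0.15 in KO arrays (adjusted p = 0.014) and 0.37 ± 0.15 in WT arrays (adjusted p = 0.14). Xcl1 gained 0.54 and 0.38 (adjusted p = 0.005 and 0.043). At 2 h the share of the 4 h log2 change was 50.5% and 68.4% for Ccl1, 34.5% and 50.97% for Xcl1, 51.4% and 56.8% for Cxcl16, and 178% and 179% for Ccl20, in KO and WT arrays. The KO calls of Ccl1 and Xcl1 were lost without KO 2 h B or KO 4 h B, that of Ccl1 also without KO 2 h A (adjusted p up to 0.17 and 0.087). The WT call of Xcl1 was lost without any one of KO 2 h A, KO 2 h B, WT 2 h A, WT 2 h B, WT 4 h A or WT 4 h B and under 7 other settings (adjusted p up to 0.26).

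The design also asks what depends on the p38a genotype. Before stimulation none of the 7 genes differed between KO and WT arrays at adjusted p under 0.05 in limma, where 3.3% of all genes were called. At 2 h again 0 of 7 were called, where 2.3% of all genes were called. At 4 h 1 of 7, Ccl17, was lower in KO arrays, where 1.26% of all genes were called lower. Averaged over the times 0 of 7 were called by limma, where 10.5% of all genes were called. At an unadjusted limma p under 0.05 stood 1 of the 7 at 0 h and 2 at 2 h. Averaged over the times 3 did, namely Ccl17, Cxcl16 and Ccl1. The share of all genes at that unadjusted threshold is not given here. The KO minus WT differences of the other 6 genes at 4 h ran from -0.13 (Cxcl16, 95% interval -0.28 to 0.03) to 0.08 (Ccl20, -0.21 to 0.36).

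For Ccl17 the KO minus WT difference was 0.14 at 0 h, -0.26 at 2 h and -0.30 at 4 h (SE 0.074 each; adjusted p = 0.403, 0.084 and 0.048). Both KO arrays stood above both WT arrays at 0 h, and both stood below them at 2 h and at 4 h. The KO response was smaller than the WT response by 0.41 ± 0.11 at 2 h and by 0.44 ± 0.11 at 4 h, with unadjusted p of 0.0015 and 7.6e-04 but adjusted p of 0.402 and 0.36. No difference of responses was called for any of the 7 genes at either time, where 0.0313% and 0.0469% of all genes were called. At an unadjusted p under 0.05 stood 1 of the 7 at each time, namely Ccl17. The 4 h genotype call lay at the threshold: it was lost without any one of KO 0 h A, KO 0 h B, KO 2 h A, KO 2 h B, KO 4 h A, KO 4 h B, WT 4 h A and WT 4 h B. It was also lost under 9 other settings, among them both other scalings (adjusted p from 0.038 to 0.78 over all), while the difference kept its sign, from -0.50 to -0.26.

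Markers of other cell types also differed between KO and WT arrays. Of 6 macrophage and monocyte markers, 3 were higher in KO arrays at 4 h (all genes 1.13%), Csf1r by 0.55, Adgre1 by 0.72 and Cd68 by 0.44. The summed signal of the 6 at 4 h was 1323 to 1344 on KO and 909.5 to 975 on WT arrays. The 3 calls were lost on the deposited scale and without WT 4 h B (highest adjusted p over all settings 0.96, 0.67 and 0.96), those of Csf1r and Cd68 without KO 4 h A, those of Adgre1 and Cd68 without KO 4 h B, and that of Cd68 without WT 4 h A. Already at 0 h 4 of the 6 were called higher in KO arrays (all genes 3.3% in either direction). Their summed signal at 0 h was 1952 to 1966 on KO and 1331 to 1462 on WT arrays. Averaged over the times Csf1r was higher in KO arrays by 0.49 and Adgre1 by 0.69. The stromal marker Pdpn, podoplanin, was higher in KO arrays by 0.82 at 0 h and by 0.84 at 4 h (adjusted p = 2.9e-04 and 3.5e-04, neither called on the deposited scale), the 1 called of 9 endothelial and stromal markers at 4 h. Averaged over the times the dendritic cell marker Itgax was higher in KO arrays by 0.50 and the B cell marker Cd79b by 0.47, calls lost on the deposited scale, and the T cell marker Cd8b1 was lower by 0.42. In that average 10.5% of all genes were called in either direction. Of 6 dendritic cell markers 1 was called, with a list median of 0.04. Called higher were 2 of 5 B cell markers (median 0.25), 4 of 6 macrophage and monocyte markers (0.39) and 4 of 9 endothelial and stromal markers (0.17). Called lower were 2 of 7 T cell markers (median -0.05). Of 7 NK cell markers 1 was called higher and 1 lower (median 0.04). Of 3 tested migratory dendritic cell markers 0 were called at 4 h in limma (1 at an unadjusted p under 0.05), with a summed signal over 4 measured genes of 21013 to 21813 on KO and 21529.6 to 23769.9 on WT arrays. Ccr7, the lymph node homing receptor, was lower in KO arrays by 0.17 averaged over the times, a call lost with trimmed-mean scaling (adjusted p up to 0.51). The part of cell composition in the Ccl17 difference was not tested.

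**Figure D3:**
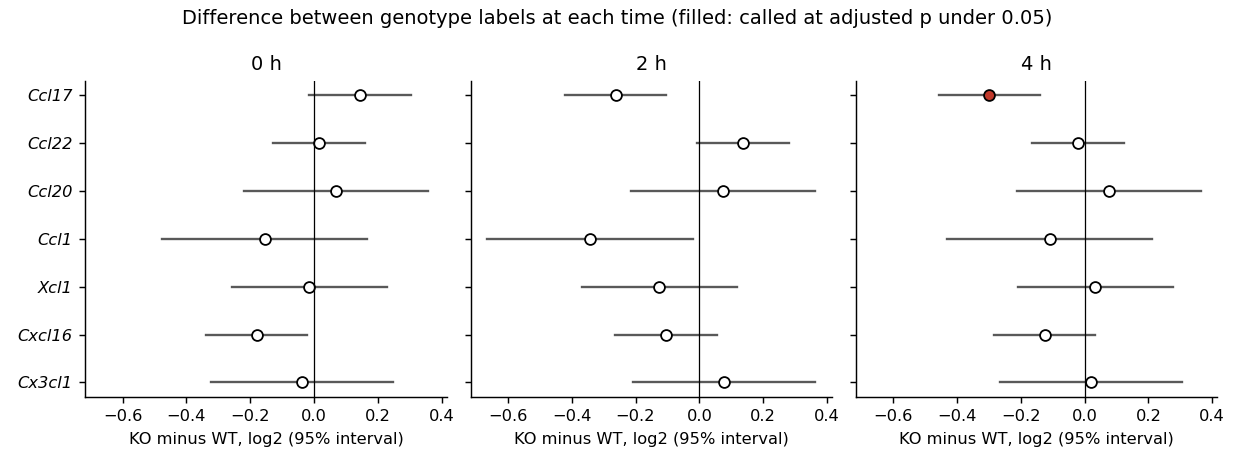
KO minus WT difference (log2) of each gene at 0, 2 and 4 h with its 95% interval, filled where called. The single filled point is Ccl17 at 4 h (-0.30), and the intervals of the other 6 genes at 4 h include 0.

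Ccl22, Cx3cl1 and Ccl17 are consecutive protein-coding genes on chromosome 8 in the RefSeq annotation, which was used here for gene order. At 4 h the outer genes of this trio rose while Cx3cl1, between them, was not called. Of the 3 genes on the Ccl22 side, Rspry1 was called higher in both genotypes (0.42 in KO and 0.52 in WT arrays), and Arl2bp and Pllp were not called. Of the 3 genes on the Ccl17 side, Ciapin1 (0.49 and 0.13), Coq9 and Polr2c were not called either. Ccl1 lies at the end of a run of CC chemokine genes on chromosome 11, and its nearest chemokine neighbours, Ccl8 and Ccl12, gave -0.27 and -0.04 in KO and -0.12 and -0.01 in WT arrays at 4 h, none called. Zmynd15, whose annotated span overlaps that of Cxcl16, fell by 1.34 in KO and by 1.43 in WT arrays at 4 h. Whether any probe of either gene lies in the shared stretch was not tested. Arrb2, β-arrestin 2, fell by 1.09 and 1.21, Tm4sf5 fell by 0.81 and 0.95, and the Mediator subunit gene Med11 rose by 0.39 and 0.73. Pelp1 was not called. On the deposited scale Rspry1 and Med11 were not called in either genotype. The KO calls of both were also lost without KO 0 h A, that of Rspry1 without KO 4 h A and that of Med11 without KO 4 h B, and the KO call of Tm4sf5 without KO 0 h B or KO 4 h A. These neighbours were taken by position only.

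**Figure D4:**
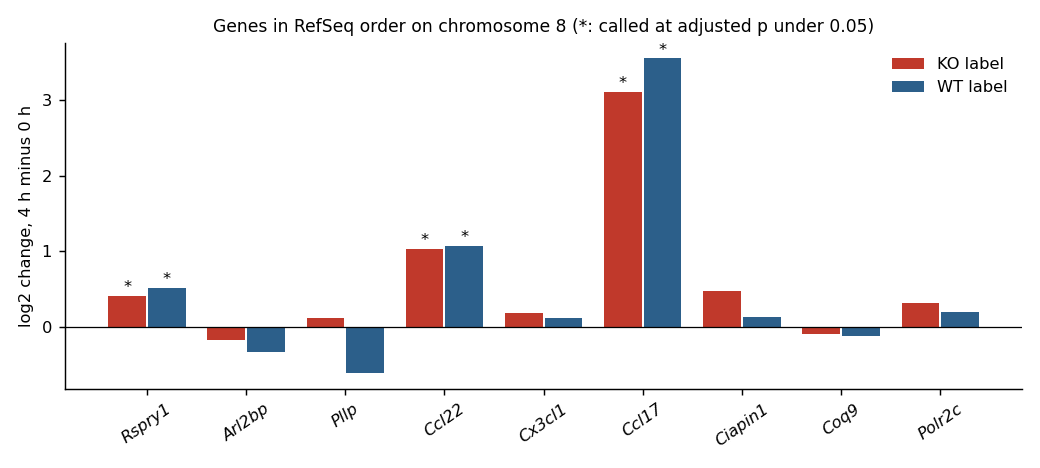
Log2 change from 0 to 4 h of 9 consecutive RefSeq protein-coding genes of chromosome 8 in chromosomal order, KO in red and WT in blue, with asterisks for called changes. Ccl22 and Ccl17 are called on both sides of Cx3cl1, and of the flanking genes Rspry1 is called.

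Of the receptors of the 7 ligands, 4 of 6 were dim in these cultures. Ccr4 and Ccr8 lay below the filter, with highest signals of 12.7 and 10.1 on any array, and so were not tested. Xcr1 and Cx3cr1 reached at most 17.2 and 20.6, beside a filter level of 10.6. Of the 4 tested receptors, Ccr6 was lower by 0.70 ± 0.22 in WT arrays at 2 h (adjusted p = 0.033), and its KO change was -0.50 (adjusted p = 0.13). The WT call was lost in 8 of 24 settings, among them without WT 0 h B, WT 2 h A or WT 2 h B (highest adjusted p over all settings 0.39). Apart from the WT change at 2 h, the changes of the 4 receptors from 0 h ran from -0.52 to 0.27, none called. Ccr6 signals at 0 h differed widely between the arrays of a group, with 77.95 and 123 in KO and 72.6 and 131 in WT arrays. The brighter Cxcr6 probe set gave 0.27 in KO and -0.26 in WT arrays at 2 h, a difference of responses of 0.53 ± 0.19 (adjusted p = 0.75). The other Cxcr6 probe set gave -0.41 and -0.34, so the probe sets disagreed in sign for KO arrays.

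**Figure D5:**
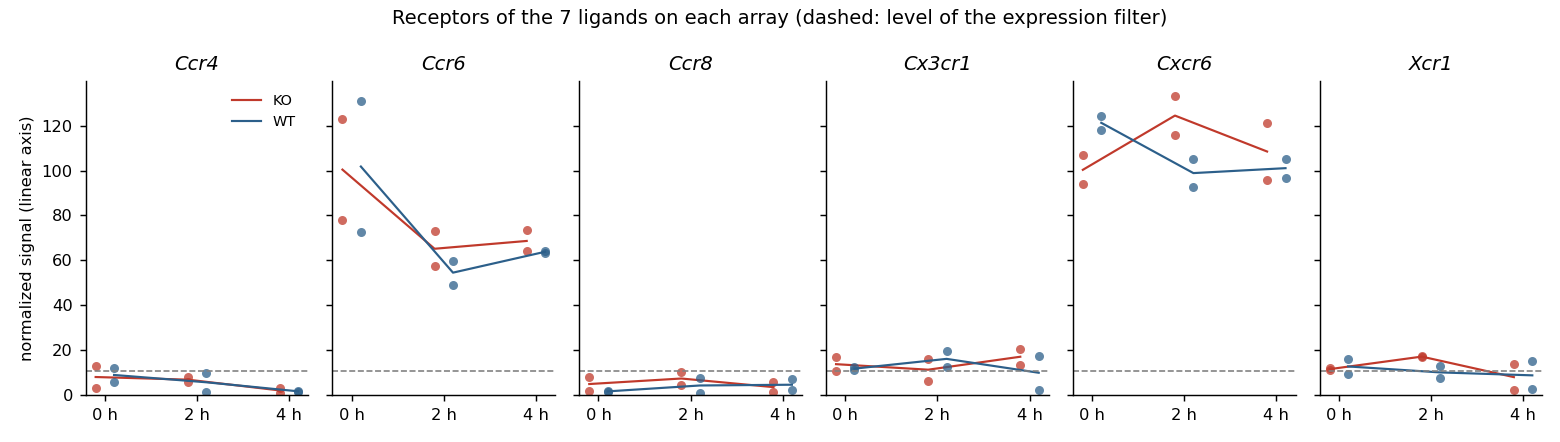
Quantile-normalized signal (linear axis from 0) of the 6 receptor genes on each array at 0, 2 and 4 h, KO in red and WT in blue, lines through the means of 2 arrays, with the filter level of 10.6 dashed. Ccr4 and Ccr8 lie near or below the dashed line, and Ccr6 and Cxcr6 lie above it on all 12 arrays.

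Cxcl16 and Cx3cl1 are cut from the membrane by metalloproteases. Of 5 tested genes of this step, Adam10 was lower in all 4 comparisons with 0 h, with log2 changes of -0.64 and -0.49 in KO and -0.49 and -0.55 in WT arrays at 2 and 4 h. Adam17 was not called, with changes from 0.10 to 0.25. Rhbdf2, a partner that ADAM17 needs to mature, was higher at 2 h in KO arrays (0.61) and not called in WT arrays (0.24). In WT arrays at 2 h its paralogue Rhbdf1 (0.42) and the inhibitor Timp3 (0.54) were called higher. These calls of Rhbdf2, Rhbdf1 and Timp3 and the 4 h calls of Adam10 were lost on the deposited scale, and all 4 of Adam10 with the mean of all probe sets. The calls of Rhbdf1 and Timp3 were also lost when WT 0 h B, WT 2 h A or WT 2 h B was left out, and that of Timp3 without WT 0 h A.

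The signals known to induce Ccl17 and Ccl22 in dendritic cells, GM-CSF, IL-4 and TSLP acting through STAT5, STAT6 and IRF4, formed a list of 21 genes of which 19 were tested. At 4 h 5 were higher in each genotype, and 5 were lower in KO and 4 in WT arrays. Of all genes 7.24% were called higher and 10.9% lower in KO arrays, and 8.31% and 9.9% in WT arrays. Csf2, which encodes GM-CSF, rose by 2.12 in KO and 2.08 in WT arrays, Stat5a by 1.79 and 1.61, and Irf4 by 1.35 and 1.69. The TNF receptor family member Cd40 rose by 1.92 and 2.16, and Stat5b by 0.56 and 0.63. The shared β chains of the GM-CSF receptor went the other way, with Csf2rb at -1.16 and -1.16 and Csf2rb2 at -0.68 and -0.79. Il7r, whose product also serves the TSLP receptor and which is on the T cell list too, stood at -0.82 and -0.78, and Jak2 at -0.28 and -0.43. Il4ra was lower in KO arrays (-0.31) and not called in WT arrays (-0.22). The Il4ra call was lost in 12 of 24 settings (highest adjusted p over all settings 0.27), among them each KO array at 0 h or 4 h and each WT array at 2 h left out. Those of Stat5b and Jak2 were lost on the deposited scale, and the KO call of Jak2 also without KO 0 h B or KO 4 h A. Stat6 was not called against 0 h at either time, and Il4 and Il13 lay below the filter. In KO against WT arrays over the 3 times together, 2 of the 19 were higher and 4 lower (all genes 10.5% in either direction). First by p were Csf2rb2 (-0.36), Csf2rb (-0.26) and Crlf2 (0.44). In KO against WT arrays at 4 h, 0 of the 19 were higher and 3 lower (all genes 1.13% and 1.26%). The 3 were Csf2rb (-0.31), Csf2rb2 (-0.37) and Il7r (-0.33). Each of these 3 was lost on the deposited scale and without WT 4 h A, and in 8, 4 and 8 of 24 settings in all, the others including KO 4 h A left out for Csf2rb and Il7r, KO 4 h B for Csf2rb2 and Il7r, and WT 4 h B for Csf2rb and Il7r. The median log2 change of the 19 at 4 h was 0.06 in KO and 0.06 in WT arrays.

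Among the 4 tested NF-kB subunit genes, Nfkb2, the p100 precursor, was higher at 4 h in KO arrays (0.74, limma) and not called in WT arrays (0.25), and Relb was lower in KO arrays (-0.36; -0.20 in WT arrays, not called). Rel, the c-Rel gene, was lower in KO than in WT arrays at 4 h (-0.51) and already at 0 h (-0.43, adjusted p = 0.0074). Nfkb2 was also lower in KO arrays at 0 h (-0.46, adjusted p = 0.0071), not called without KO 0 h B or without WT 0 h A, and at 4 h its KO minus WT difference was 0.03, not called. The 0 h call of Rel was lost without KO 0 h A or WT 0 h A. Over the 3 times together Rel was lower in KO arrays by 0.43, and it was also lower in KO arrays under every other setting run. All 3 calls at 4 h, like both at 0 h, were lost on the deposited scale, and that of Rel without WT 4 h A (highest adjusted p over all settings 0.39). The rest of the chemokine family gave 24 tested genes. Of these 11 were higher and 2 lower at 4 h in KO arrays (all genes 7.24% and 10.9%), with Ccl3 (2.35), Cxcl2 (1.68) and Cxcl10 (1.60) first by p. In WT arrays 12 were higher and 0 lower (all genes 8.31% and 9.9%), with the same genes first (2.20, 1.56 and 1.58). Their median log2 change was 0.30 in KO and 0.41 in WT arrays. In KO against WT arrays at 4 h 6 of the 24 were higher (all genes 1.13%), first by p Ccl8 (1.02), Ccl2 (0.84) and Ccl7 (0.93), and none lower, while of the 7 genes above none was higher and Ccl17 lower. Before stimulation 9 of the 24 were called higher in KO arrays and 0 lower (3.3% of all genes called in either direction), these 3 by 1.17, 1.00 and 1.27 at 0 h. On the deposited scale their 4 h differences were not called (adjusted p up to 0.16, 0.33 and 0.33).

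Genes whose levels ran most like each member were taken as the 3 highest Pearson r over the 12 arrays, among genes with an SD of at least 0.5 (log2). These correlations describe shared time courses over 6 groups and carry no test. Ccl17 ran with Cd86, a co-stimulatory ligand (r = 0.991), Lad1 and Dscaml1. Cd86 rose by 1.25 and 1.57 in KO arrays at 2 and 4 h, and by 1.64 and 1.84 in WT arrays. Ccl22 ran with Clec4e, a C-type lectin receptor (r = 0.988), Niban1 and Csf2. Ccl20 ran with Exoc3l4 (r = 0.992), the phosphatase gene Dusp14 and the Notch ligand gene Jag1, which rose by 2.79 at 2 h and 1.57 at 4 h in KO arrays and by 2.96 and 1.47 in WT arrays.

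Ccl1 ran with the phospholipase gene Pla1a (r = 0.972), Tnnt2 and the formyl peptide receptor gene Fpr2. Xcl1 ran with Ifng, interferon gamma (r = 0.952), Ccl1 (r = 0.952) and S100a8. Ifng rose by 5.02 in KO and 4.80 in WT arrays at 4 h, and S100a8, a neutrophil and monocyte gene, by 1.67 and 1.66. Cxcl16 ran with the declining genes Gpc1, a glypican gene (r = 0.983), Prcp and Ndrg4. For Cx3cl1, whose SD over the arrays was only 0.16, the highest r was 0.800, with Socs3.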

How the data were processed

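RNA of 12 samples was hybridised to 1 array each. The table that the authors deposited holds a linear intensity per probe set and array, made with MAS 5 per the submitters' processing notes. The sources used here do not give its scaling target. Amplification was by 3' in vitro transcription, according to the labels' protocols.

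A single gene symbol was annotated for 34958 of the 45101 probe sets. The values were quantile-normalized and taken as log2(value + 16). Genes with a mean under the 40th percentile over probe sets (a signal of 10.6) were not tested. Group means were fitted to all 12 arrays in R 4.3.3 with limma 3.58.1, using lmFit and a trended eBayes, and two-sided p-values were Benjamini-Hochberg adjusted over 12792 genes in each of 12 comparisons. Errors after ± are standard errors, and intervals are 95% and unadjusted.

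Named genes were all members, the receptors, the called genes of the protease and inducing-signal lists, up to 3 called genes of other lists by p, and the 3 genes most like each member. Neighbouring genes were added by position. Members, lists and tests were chosen with earlier results of these data known. The fit was tested on simulated data. Since the labels name no separate animals or cultures, the p-values measure only the spread between these arrays, which may be technical. The number of arrays limits the precision. Same-lettered arrays did not deviate together: r of the A minus B differences between groups ran from -0.042 to 0.105 and exceeded 0.1 in 1 of 15 pairs of groups.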

Additional observations from a re-analysis of the deposited data

Results flagged for a closer look

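Ccl6, a chemokine gene outside the 7, differed between the genotypes in its response by the test of that difference. The KO response minus the WT response was -1.34 at 2 h and -1.33 at 4 h on the log2 scale (limma, adjusted p = 0.0046 and 0.005). The change was 0.53 and 0.66 in KO arrays at 2 and 4 h, and 1.87 and 1.99 in WT arrays. Both calls were lost on the deposited scale, with the mean of all probe sets and without the variance trend, and the 4 h call also without KO 4 h A or WT 4 h A (highest adjusted p over all settings 0.37). At 0 h the KO minus WT difference was 1.04 (adjusted p = 1.1e-04). This gene was chosen after its values were seen.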

How the results depend on the processing

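Each of the 12 comparisons was repeated under 14 other settings, where they applied, and without each array in turn. Of the member values so obtained, 2094 kept their side of the threshold, 66 lost the call, 17 gained it, and 0 called values changed sign; 83 of 1302 values called under neither setting had the other sign. For 4 h against 0 h, 6 of 7 genes were called in each genotype whichever array was left out. On the deposited scale the median of all genes shifted by -0.41 (KO 2 h), -0.20 (KO 4 h), -0.35 (WT 2 h) and -0.16 (WT 4 h), and 189 genes were higher and 664 lower in KO arrays at 4 h (926 and 1389 after quantile normalization), and 251 and 581 in WT arrays (1063 and 1267). There 3 members were called from 2 to 4 h in KO and 2 in WT arrays, in place of 5 and 4. Without the variance trend 2 were called in WT arrays from 2 to 4 h. Requiring a log2 change of at least 1 left 3 members in KO and 2 in WT arrays at 2 h against 0 h, and 1 in each from 2 to 4 h. Leaving out 1 array gave 3 to 5 members from 2 to 4 h in KO arrays, 2 to 4 in WT arrays, 0 to 1 for KO minus WT at 4 h and 0 to 1 over all times. For KO minus WT at 4 h, 0 members in place of 1 were called on the deposited scale, with trimmed-mean scaling, pseudocount 1, no filter, the mean of all probe sets, every probe set tested, no variance trend, only the groups compared, and a log2 change of at least 1. At adjusted p under 0.1, 1 member was called for KO minus WT at 2 h and 2 over all times. Over all times 2 were also called with trimmed-mean scaling and with the 60th percentile filter, and 1 with pseudocount 64. The replicate block called 2 members over all times, Ccl17 and Cxcl16, and changed no other call of a member; the letters share only a name. Of 440 called values of 98 other listed, neighbouring or like genes, 188 were called under every scaling, filter, fit and left-out array run, 252 were lost under at least 1, and 6 of these took the other sign under 1 or more. The cause of these shifts was not tested. Dimness limits what can be said of Ccr4, Ccr8, Xcr1 and Cx3cr1.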
